A study of Mus musculus with 11 samples.

Results

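Liver transcripts of 9 acyl-CoA thioesterases (Acot1, Acot2, Acot3, Acot4, Acot7, Acot8, Acot11, Acot12 and Acot13) and of the pantetheinase vanin 1 (Vnn1) were measured in diabetic mice with and without an antibody against the glucagon receptor. The genes were taken as all array probes designed on a RefSeq transcript of these 10 genes. This gave 12 probes of the 39429 gene probes on the array, for 10 of 20144 named genes, with 2 probes each for Acot3 and Acot8. All animals carried the db/db genotype, which leaves them without a working leptin receptor, obese and diabetic. The 5 control samples, numbered 1, 3, 4, 5 and 6, came from mice given phosphate-buffered saline (PBS), which the design text calls untreated. The 6 treated samples, numbered 1 to 6, came from mice given 5 mg/kg of the monoclonal antibody 3c7.v44 against this receptor (anti-GCGR). The design text states 6 replicates, and a PBS sample with number 2 was not analysed here. Age, sex and time after dosing are not given in the labels.

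Acyl-CoA thioesterases cut a fatty acyl-CoA into a free fatty acid and coenzyme A, and so set how much activated fatty acid and how much free coenzyme A a compartment holds. Different members work in the cytosol, mitochondria and peroxisomes. Vanin 1 acts on the breakdown path of coenzyme A, cutting pantetheine into cysteamine and pantothenate, the vitamin from which coenzyme A is made. In liver, Vnn1 and several of the clustered thioesterase genes are known targets of the fatty acid receptor PPAR-alpha and are known to be raised by fasting, the state in which glucagon is high. The comparison asks what blocking the glucagon receptor does to their transcripts.

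Each liver sample was labelled with the dye Cy5 and hybridised with a common pooled mouse reference RNA in Cy3, with no dye swap. A level is therefore log2 of liver over reference, and a difference is the antibody mean minus the PBS mean of these log2 ratios. Levels of different genes cannot be set against each other, since each depends on its own amount in the reference and on its own probe. The labels do not say that the samples came from separate mice, so that the p-values cover the spread among these samples, which may be technical. In whole liver, fewer cells of a type and less RNA per cell cannot be told apart.

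The arrays had a median Cy5 signal of 85 to 110 against a local background of 26 to 27, and the number of arrays limits the precision. All 12 probes were well above background in Cy5 on all 11 arrays, so that none of the 10 genes was lost to the filter on dim probes, and no spot of any gene was saturated. The arrays lay on 3 slides that each held both groups, with PBS samples only in positions 1 and 2 and antibody samples only in positions 3 and 4, so position and group cannot be told apart. Anti-GCGR replicate 5 stood apart from the rest of its group. Over the 3868 genes called without it, it showed a median of 19.4% of the change, against 90.2% to 124% on the other antibody arrays, each measured over the genes called without that array. The 4 calls reported here are given with and without it.

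Acot2, Acot1, Acot4 and Acot3 follow each other on the same strand of chromosome 12. Promoter windows from 250 bases before to 50 bases after the annotated start were matched for 8 of the 10 genes (RefSeq, build GRCm38.p6, with 2 starts each for Acot3 and Acot11). The windows shown are those of the neighbours Acot2, Acot1 and Acot4, of which Acot2 was called as higher and the others were not called, and of Acot12 and Acot11, whose ratios were higher with the antibody. Both strands were searched for 4 motifs, and capitals mark the matches. They are AGGTCA, the half-site of nuclear receptors (printed as its reverse complement where it lies on the other strand), a direct repeat of AGGNCA with any base between the copies, the layout that PPAR binds with its partner RXR, TGACGTCA, the full cAMP response element, and TGACG, its core. The last lies inside the third, and AGGTCA is one of the sequences that each copy in the repeat allows.
Acot2, chr12:83987611-83987910 (+ strand): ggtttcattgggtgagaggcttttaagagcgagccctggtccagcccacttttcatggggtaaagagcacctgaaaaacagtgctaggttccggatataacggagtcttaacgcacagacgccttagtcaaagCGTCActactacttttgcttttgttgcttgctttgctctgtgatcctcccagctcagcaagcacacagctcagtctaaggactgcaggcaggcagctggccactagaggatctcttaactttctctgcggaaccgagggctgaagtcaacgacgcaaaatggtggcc
Acot1, chr12:84009252-84009551 (+ strand): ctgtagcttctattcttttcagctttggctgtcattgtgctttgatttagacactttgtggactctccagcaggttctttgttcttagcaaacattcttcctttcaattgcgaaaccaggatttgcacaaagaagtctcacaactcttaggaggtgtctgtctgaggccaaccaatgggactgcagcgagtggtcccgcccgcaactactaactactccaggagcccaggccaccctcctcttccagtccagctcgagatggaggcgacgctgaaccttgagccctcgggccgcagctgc
Acot4, chr12:84038129-84038428 (+ strand): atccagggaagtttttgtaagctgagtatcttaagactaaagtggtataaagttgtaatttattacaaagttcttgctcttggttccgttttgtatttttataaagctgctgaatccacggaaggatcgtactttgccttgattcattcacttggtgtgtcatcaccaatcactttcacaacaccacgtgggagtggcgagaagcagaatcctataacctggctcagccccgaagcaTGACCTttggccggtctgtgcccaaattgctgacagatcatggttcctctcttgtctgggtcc
Acot12, chr13:91741271-91741570 (+ strand): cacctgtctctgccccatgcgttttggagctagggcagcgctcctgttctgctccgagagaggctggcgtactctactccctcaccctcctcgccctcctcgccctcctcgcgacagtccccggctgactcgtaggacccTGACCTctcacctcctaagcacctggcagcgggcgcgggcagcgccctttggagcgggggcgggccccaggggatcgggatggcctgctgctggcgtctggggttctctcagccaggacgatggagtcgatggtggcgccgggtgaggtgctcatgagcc
Acot11, first start, chr4:106804958-106805257 (- strand): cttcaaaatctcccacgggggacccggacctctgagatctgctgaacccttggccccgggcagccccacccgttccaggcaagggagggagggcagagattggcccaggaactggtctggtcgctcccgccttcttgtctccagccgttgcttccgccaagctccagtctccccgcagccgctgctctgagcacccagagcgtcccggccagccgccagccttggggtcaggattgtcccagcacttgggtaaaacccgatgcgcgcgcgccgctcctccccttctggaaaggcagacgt
Acot11, second start, chr4:106799782-106800081 (- strand): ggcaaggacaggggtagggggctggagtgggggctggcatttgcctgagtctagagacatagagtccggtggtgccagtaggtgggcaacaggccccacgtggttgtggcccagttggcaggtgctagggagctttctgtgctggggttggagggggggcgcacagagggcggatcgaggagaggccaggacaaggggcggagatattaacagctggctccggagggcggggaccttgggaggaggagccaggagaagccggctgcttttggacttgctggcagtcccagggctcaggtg

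AGGTCA was found in 3 of the 8 genes with a window. Counted from the start site, it lies at -13 in Acot4, at -110 in Acot12 and at 18 or 11 in Acot3, depending on which of its starts is used. Of all 27025 genes with a window of this length, 18.1% hold it. TGACG was found in 1 of the 8, Acot2, at -117, and is in 23.0% of all genes with a window. The spaced repeat was in 0 of 8 genes and in 0.451% of all genes, and TGACGTCA was in 0 of 8 genes and in 2.03% of all genes. A match describes letters in a short window, and the absence of a match says only that these letters are not in it.

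Of the 10 genes, 4 rose with the antibody, none fell and 6 did not pass the test (limma, 6 against 5 arrays, two-sided, Benjamini-Hochberg adjusted p under 0.05 over 15951 genes). They were Acot11, Acot12, Acot2 and Vnn1. At an unadjusted p under 0.05 the count was the same 4, where 30.5% of all genes passed. Among all genes tested, 14.6% were called, 8.98% as higher and 5.67% as lower. Of the called genes 61.3% were higher, against 21.3% with median centring in place of loess, 45.2% with the scanner software's ratio and 51.0% with quantile scaling between arrays. The median log2 fold change was 0.17 over the 10 genes and 0.013 over all genes. The groups overlapped in all 10 genes, including the 4 called, where 6.65% of all genes had groups that did not overlap (3.96% higher with the antibody and 2.7% lower).

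**Figure D1:**
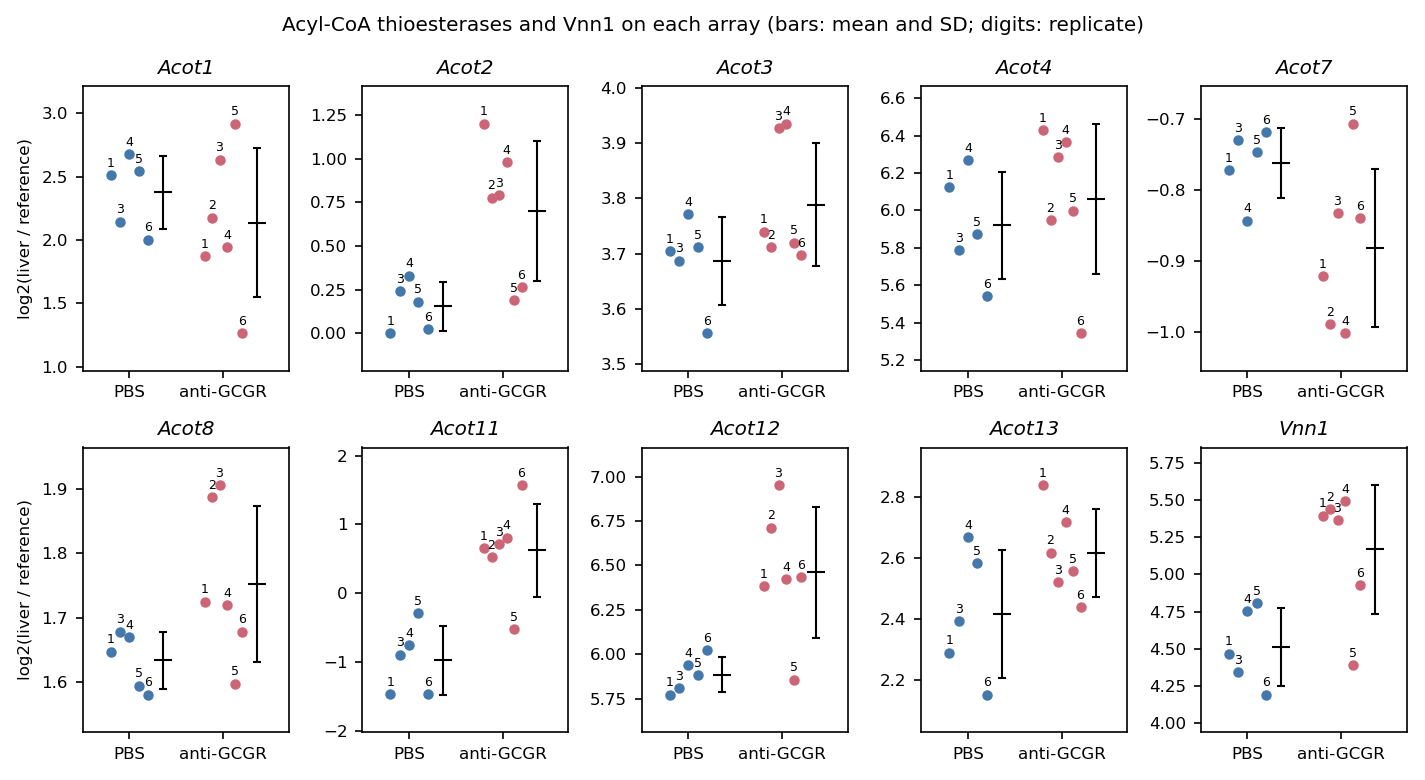
Log2 ratio of liver over reference (y axis, a separate scale for each gene) on each array, for the 10 genes in PBS (5 arrays) and anti-GCGR (6 arrays) samples. Digits are replicate numbers, and bars give the mean and SD. Acot11, Acot12 and Vnn1 have 5 of 6 antibody arrays above the highest PBS array, and replicate 5 is the lowest antibody array in each.

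Acot11, also called Them1 and known for limiting heat production in brown fat through its hydrolysis of long-chain acyl-CoA, differed most. Its PBS arrays stood at -1.47, -0.90, -0.76, -0.29 and -1.47 (replicates 1, 3, 4, 5 and 6). Its antibody arrays stood at 0.65, 0.52, 0.71, 0.81, -0.53 and 1.57 (replicates 1 to 6). Thus 5 of 6 antibody arrays lay above every PBS array, and replicate 5 lay within the PBS range. The PBS mean was -0.98 ± 0.50 (SD, n = 5) and the antibody mean 0.62 ± 0.67 (SD, n = 6), a rise of 1.60 ± 0.31 (SE) on the log2 scale, or 3.03-fold, with a 95% interval of 0.94 to 2.26 (limma adjusted p = 0.00833). The Cy5 signal of its spots ranged from 215 to 592 in PBS and from 468 to 2119 in antibody samples. Acot11 was the only one of the 4 whose call held in all 11 fits that left out 1 array (1.41 to 1.83).

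Within slides, Acot11 was higher with the antibody by 1.85 on the first slide, 0.29 on the second and 2.32 on the third. The second slide holds PBS replicate 5, the highest PBS array, beside anti-GCGR replicates 2 and 5, the lowest antibody arrays. With slide as a block the difference was 1.64 (limma adjusted p = 0.0103). Without anti-GCGR replicate 5 it was 1.83 (limma adjusted p = 0.000227).

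Acot12, a cytosolic enzyme of liver that hydrolyses acetyl-CoA to acetate and coenzyme A, had tightly grouped PBS values. They were 5.77, 5.81, 5.94, 5.88 and 6.02, against 6.38, 6.71, 6.95, 6.42, 5.86 and 6.43 in the antibody samples. All antibody arrays but replicate 5 lay above the PBS range. The mean rose from 5.89 ± 0.10 (SD, n = 5) to 6.46 ± 0.37 (SD, n = 6), by 0.57 ± 0.15 (SE), or 1.49-fold (limma adjusted p = 0.0229). It was higher within each slide, by 0.55, 0.40 and 0.78.

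The reference signal behind the Acot12 ratio was near background. It was well above background on 2 of 11 arrays, and the Cy3 channel alone was lower by 0.14 in antibody samples (limma adjusted p = 0.501). In the Cy5 channel alone the difference was 0.30 and did not pass (limma adjusted p = 0.115). With the scanner software's own ratio it was 1.27 and did not pass either (limma adjusted p = 0.129), so that the size of the difference varied widely with the values used. The call was also lost without PBS replicate 1 (0.55, limma adjusted p = 0.0594) and without PBS replicate 3 (0.56, limma adjusted p = 0.0542). Without anti-GCGR replicate 5 the difference was 0.70 (limma adjusted p = 0.000540).

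Acot2, the mitochondrial member of the chromosome 12 cluster, which cuts long-chain acyl-CoA in the matrix, gave a weak signal. Its Cy5 signal was 134 to 196 in PBS and 171 to 326 in antibody samples. On the log2 ratio scale the PBS arrays stood at 0.0013, 0.24, 0.33, 0.18 and 0.02, and the antibody arrays at 1.20, 0.78, 0.79, 0.98, 0.19 and 0.26. Here replicates 1 to 4 lay above every PBS array, while replicates 5 and 6 lay within the PBS range. The PBS mean was 0.16 ± 0.14 (SD, n = 5) and the antibody mean 0.70 ± 0.40 (SD, n = 6), a rise of 0.54 ± 0.16 (SE), or 1.46-fold (limma adjusted p = 0.0403). Within slides it was higher by 0.92, 0.30 and 0.39.

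The Acot2 call was close to the threshold and was lost in 9 of the 11 fits that left out 1 array, with adjusted p up to 0.0964 and differences of 0.44 to 0.59 among those 9. It was kept without anti-GCGR replicate 5 (0.65, limma adjusted p = 0.00552) and without anti-GCGR replicate 6 (0.63, limma adjusted p = 0.0265). In the Cy5 channel alone the difference was 0.55 (limma adjusted p = 0.0400).

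Vnn1 stood at 4.47, 4.34, 4.75, 4.80 and 4.19 in PBS and at 5.40, 5.44, 5.36, 5.49, 4.39 and 4.93 in antibody samples. Replicate 5 lay within the PBS range, and the other 5 antibody arrays lay above it, with replicate 6 closest. The mean rose from 4.51 ± 0.26 (SD, n = 5) to 5.17 ± 0.43 (SD, n = 6), by 0.66 ± 0.19 (SE), or 1.58-fold (limma adjusted p = 0.0360). Vnn1 was higher by 0.84 on the first slide and 0.88 on the third, and by 0.11 on the second, which holds anti-GCGR replicate 5.

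The Vnn1 call was lost in 7 of the 11 fits that left out 1 array. These were the fits without PBS replicates 1, 3 and 6 and without anti-GCGR replicates 1 to 4, with adjusted p up to 0.0840 and differences of 0.58 to 0.65. It was kept without PBS replicates 4 and 5 and anti-GCGR replicates 5 and 6. Without anti-GCGR replicate 5 it was 0.81 (limma adjusted p = 0.000901). The Cy3 channel alone was 0.12 higher in antibody samples (limma adjusted p = 0.318), and the Cy5 channel alone gave 0.73 (limma adjusted p = 0.0361).

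**Figure D2:**
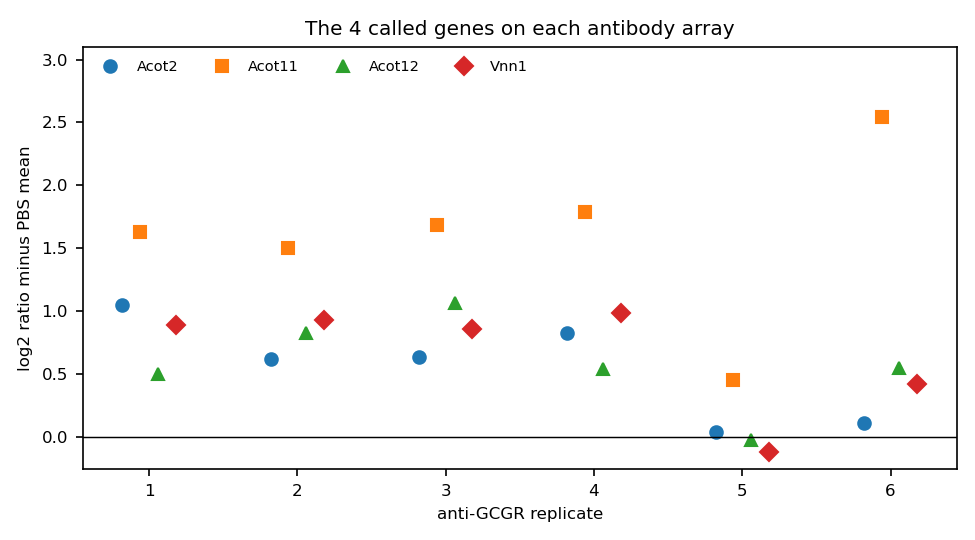
Log2 ratio minus the PBS mean of the same gene (y axis) for the 4 called genes on each antibody array (x axis, replicates 1 to 6). Replicate 5 is the lowest antibody array for all 4 genes, and Acot2 is also low on replicate 6, where Acot11 is at its highest.

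The cytosolic Acot1 is the closest relative of Acot2 in the cluster and is known as a PPAR-alpha target in liver. It stood at 2.51, 2.15, 2.68, 2.54 and 2.003 in PBS and at 1.87, 2.18, 2.63, 1.95, 2.92 and 1.27 in antibody samples. The antibody arrays spread on both sides of the PBS range, with replicate 5 highest and replicate 6 lowest. The difference was -0.24 ± 0.24 (SE), with a 95% interval of -0.77 to 0.29 (limma adjusted p = 0.559). Within slides it was -0.69, 0.01 and -0.12.

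Acot4, a peroxisomal enzyme for dicarboxylic acyl-CoA such as succinyl-CoA, stood at 6.12, 5.79, 6.27, 5.87 and 5.54 in PBS. With the antibody it stood at 6.43, 5.95, 6.28, 6.37, 6.00 and 5.34, a range that holds the PBS range whole. The difference was 0.14 ± 0.18 (SE), with a 95% interval of -0.26 to 0.54 (limma adjusted p = 0.659). Its reference signal was well above background on 0 of 11 arrays, so the level of its ratio rests on a floor in Cy3. In the Cy5 channel alone the difference was 0.06 (limma adjusted p = 0.839).

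Acot3, a peroxisomal enzyme for long-chain acyl-CoA, had 2 probes. On the brighter, PBS arrays lay between 3.56 and 3.77 and antibody arrays between 3.70 and 3.94, a difference of 0.10 ± 0.06 (SE, limma adjusted p = 0.297). Its Cy3 channel alone was 0.27 higher in antibody samples (limma adjusted p = 0.543). The Cy5 channel alone gave 0.37 (limma adjusted p = 0.279). On the other, PBS arrays lay between 3.11 and 3.93 and antibody arrays between 3.09 and 4.38, a difference of 0.33 ± 0.19 (SE, limma adjusted p = 0.317 among all kept probes). With the scanner software's own ratio, the direction of Acot3 (-0.03) and Acot4 (-0.08) turned, without a call either way.

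Whether the antibody difference itself differed between the 4 neighbours was tested on the difference of their log2 ratios within each array, of which only the shift between groups has a meaning. The 6 pairs, chosen with the Acot2 call known, were tested by exact permutation over the 462 splits of the arrays into 5 and 6 (two-sided, adjusted over the 6 pairs). None of the pairs passed. Acot2 minus Acot1 shifted by 0.78 with the antibody, with an SD of 0.26 over the PBS arrays and 0.75 over the antibody arrays (exact permutation p = 0.0541, adjusted p = 0.108). With spreads this unequal, the permutation does not test a shift of the mean alone. The lowest antibody value of this pair came from anti-GCGR replicate 5, and the pairs were not tested without that array. Acot2 minus Acot3 shifted by 0.44 (exact permutation p = 0.0216, adjusted p = 0.0974) and Acot2 minus Acot4 by 0.40 (exact permutation p = 0.0325, adjusted p = 0.0974). Since Acot2 had the largest antibody difference of the 4 neighbours, all 3 of these shifts had to be towards it. They also share the Acot2 values, so their common direction adds nothing to the tests. That they missed the threshold does not show that the genes responded alike. The adjusted p of the other 3 pairs ran from 0.247 to 0.833. The genes of this cluster are close relatives, and whether a probe also binds a neighbour's transcript was not tested.

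**Figure D3:**
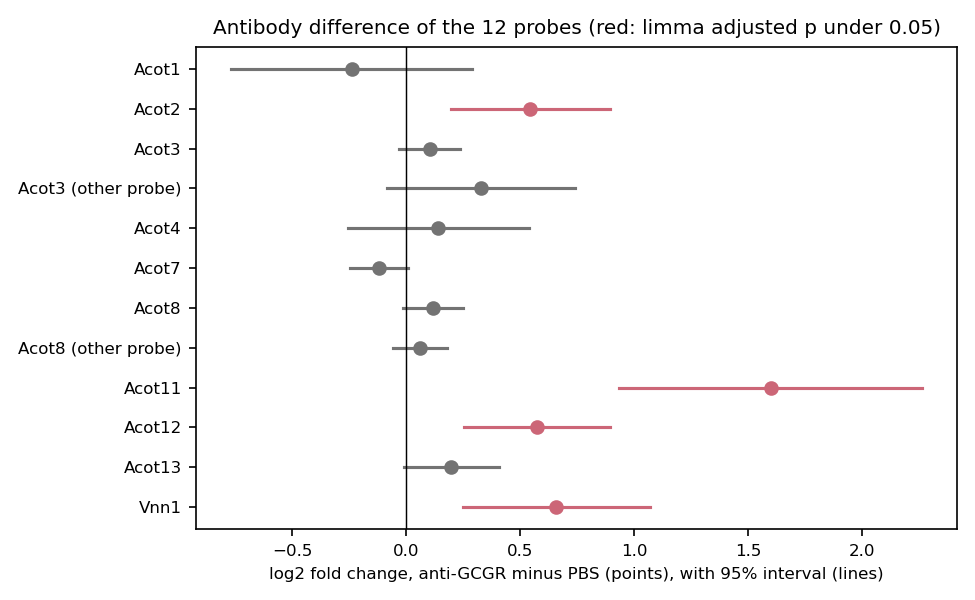
Log2 fold change, antibody minus PBS, of the 12 probes of the 10 genes (points) with 95% intervals (lines), in red where the test was passed. The interval of Acot11 runs from 0.94 to 2.26, those of Acot2, Acot12 and Vnn1 lie above 0, and the others include 0.

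The other 3 thioesterases did not pass the test. Acot8, a peroxisomal enzyme of broad chain-length range, lay between 1.58 and 1.68 in PBS and between 1.60 and 1.91 with the antibody on its representative probe (0.12 ± 0.06 SE, limma adjusted p = 0.213). Its second probe differed by 0.06 ± 0.05 (SE, limma adjusted p = 0.531 among all kept probes). Acot13, also called Them2, a mitochondria-associated enzyme that partners the phosphatidylcholine transfer protein, had Cy5 signals of 33559 to 55726 over both groups. Its PBS mean was 2.42 ± 0.21 (SD, n = 5) and its antibody mean 2.61 ± 0.14 (SD, n = 6), a difference of 0.20 ± 0.10 (SE) and a 95% interval of -0.012 to 0.41 (limma adjusted p = 0.189).

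Acot7, a cytosolic thioesterase best known from brain, was below the reference in every sample. Its PBS mean was -0.76 ± 0.05 (SD, n = 5) and its antibody mean -0.88 ± 0.11 (SD, n = 6), a difference of -0.12 ± 0.06 (SE, limma adjusted p = 0.190). It was lower within each slide, by -0.15, -0.10 and -0.11. Median centring of the arrays in place of loess gave -0.24 and a call (limma adjusted p = 0.0325). Without anti-GCGR replicate 5 it was -0.15 (limma adjusted p = 0.0503).

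After each group's mean was taken away, genes that varied together across the 11 arrays could be named, as a description only, since the arrays also share slide and hybridisation. Anti-GCGR replicate 5, which stood apart from the rest of its group, is among these arrays. Its deviation from the group mean enters each correlation, and the correlations were not computed without it. Among the 10 genes, Acot8 followed Acot12 most closely (Pearson r = 0.82), then Acot2 and Vnn1 (0.81), while Acot7 ran against Vnn1 (-0.84) and Acot2 (-0.72). Acot1 did not follow Acot2 (-0.07). Among all other genes tested, the closest to Acot2 were the mitochondrial coenzyme A carrier Slc25a42 (0.967) and Fam185a (0.962). The closest to Vnn1 were Ociad2 (0.961), Ptrh2 (0.945) and the biliverdin reductase Blvrb (0.944). Acot12 was closest to Entpd8 (0.949), Isoc2b (0.941) and Kdf1 (0.932), and Acot11 to C1qtnf12 (0.929), Elk3 (0.925) and Anxa1 (0.918).

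Of 9 other acyl-CoA and palmitoyl thioesterases measured, 3 rose (Acot9, Acot10 and the lysosomal Ppt1), 1 fell and 5 did not pass, with a median of 0.15. The counts of this list and of those that follow stand beside 8.98% higher and 5.67% lower among all genes tested. The mitochondrial Acot9 rose from -2.40 ± 0.10 (SD, n = 5) to -1.77 ± 0.25 (SD, n = 6), by 0.62 ± 0.11 (SE, limma adjusted p = 0.00581), and Acot10, which is close to it in sequence, by 0.48 ± 0.09 (SE, limma adjusted p = 0.00779). The groups did not overlap in either, and whether the probe of one also binds the other transcript was not tested. Them4 fell from 1.94 ± 0.07 (SD, n = 5) to 1.54 ± 0.15 (SD, n = 6), by -0.41 ± 0.07 (SE, limma adjusted p = 0.00644), also without overlap. Acot5 and Acot6, which lie next to Acot3 in the same cluster, differed by 0.17 and -0.12 and did not pass (limma adjusted p = 0.584 and 0.405).

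Around Vnn1, 17 genes of coenzyme A synthesis, transport and breakdown were measured, of which 3 (17.6%) rose, 1 (5.88%) fell and 13 did not pass (median 0.04). Vnn3, another pantetheinase, rose from 5.08 ± 0.21 (SD, n = 5) to 5.56 ± 0.26 (SD, n = 6), by 0.48 ± 0.13 (SE, limma adjusted p = 0.0249). With the scanner software's ratio Vnn3 differed by 0.04 and with the Cy5 channel alone by 0.39, and neither passed. Ppcs, which joins phosphopantothenate to cysteine in coenzyme A synthesis, rose by 0.46 ± 0.08 (SE, limma adjusted p = 0.00603). Enpp1, a cell-surface nucleotide pyrophosphatase, fell (log2 fold change -0.33, limma adjusted p = 0.0346). Pank1, the pantothenate kinase, was the third that rose, at 0.33 (limma adjusted p = 0.0489).

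Of 14 genes of glutathione and of the use of cysteamine, 2 (14.3%) rose, none fell and 12 did not pass (median 0.06). Csad, which makes hypotaurine from cysteine sulfinate, rose by 1.12 ± 0.31 (SE, limma adjusted p = 0.0296), and the glutathione synthetase Gss by 0.28 ± 0.08 (SE, limma adjusted p = 0.0315). Ado, which oxidises the cysteamine that vanin releases, differed by -0.04 (limma adjusted p = 0.743).

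The acyl-CoA synthetases, which make what thioesterases cut, had 3 of 17 measured members (17.6%) that rose, 1 (5.88%) that fell and 13 that did not pass (median 0.07). Acsl5 rose by 0.44 ± 0.12 (SE, limma adjusted p = 0.0278) and the mitochondrial acetate activator Acss1 by 0.30 ± 0.08 (SE, limma adjusted p = 0.0279). Slc27a1, a fatty acid transport protein, fell (log2 fold change -0.45, limma adjusted p = 0.0186). Acsl1, the main long-chain synthetase of liver, differed by 0.07 (limma adjusted p = 0.629).

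In peroxisomal beta-oxidation, 4 of 25 measured genes (16%) rose, 1 (4%) fell and 20 did not pass (median 0.12). Pex11a, which acts in peroxisome division, rose from 3.71 ± 0.40 (SD, n = 5) to 4.89 ± 0.79 (SD, n = 6), by 1.18 ± 0.33 (SE, limma adjusted p = 0.0312), and the thiolase Acaa1b rose by 0.45 ± 0.10 (SE, limma adjusted p = 0.0123). Phyh, of phytanic acid breakdown, fell (log2 fold change -0.39, limma adjusted p = 0.0344). In mitochondrial beta-oxidation and ketogenesis, 3 of 22 (13.6%) rose, 2 (9.09%) fell and 17 did not pass (median 0.09). The dienoyl-CoA reductase Decr1 rose by 0.44 ± 0.07 (SE, limma adjusted p = 0.00571) and Cpt1b by 0.72 ± 0.20 (SE, limma adjusted p = 0.0319), while Etfa (-0.36, limma adjusted p = 0.0132) and Echs1 (-0.24, limma adjusted p = 0.0352) fell.

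The longest of the lists held PPAR-alpha, its known liver targets and some of its partners, such as Rxra, Ncor1 and Ppargc1a. Of its 30 genes, 12 (40%) rose, 1 (3.33%) fell and 17 did not pass (median 0.24). The list, like the others, was chosen with earlier results of these data known, so its share of rises is a description and no test. Txnip, a brake on glucose uptake, rose by 0.85 ± 0.22 (SE, limma adjusted p = 0.0244) and the lipid droplet protein Plin2 by 0.77 ± 0.17 (SE, limma adjusted p = 0.0122). The coactivator Ppargc1a, a gene that glucagon is known to induce, fell from 2.07 ± 0.23 (SD, n = 5) to 1.27 ± 0.19 (SD, n = 6) without overlap (limma adjusted p = 0.00409). Ppara itself was among the genes that rose (0.32, limma adjusted p = 0.0301). So were its known targets Fabp1 (0.52, limma adjusted p = 0.0160) and Cd36 (0.19, limma adjusted p = 0.0330). Other well-known targets did not pass, such as Cyp4a10 (-0.12, limma adjusted p = 0.440) and Cyp4a14 (0.08, limma adjusted p = 0.573). Ppara and these targets were named after their values were seen. How the calls of Ppara, Fabp1 and Cd36 fared with arrays left out is not reported here. The list shares Acaa1b, Cpt1b and other genes with the oxidation lists. Its 12 rises became 7 without PBS replicate 1, 6 without PBS replicate 3, 7 without PBS replicate 6, 6 without anti-GCGR replicate 4 and 15 without anti-GCGR replicate 5. Of 9 other PPARs and partners, Pparg rose by 0.32 ± 0.09 (SE, limma adjusted p = 0.0405), none fell and 8 did not pass.

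The calls of Acot9, Acot10, Them4, Ppcs, Slc27a1, Acaa1b, Decr1, Etfa, Ppargc1a and Plin2 held in all 11 fits that left out 1 array. Those of Vnn3 and Acsl5 held in 7 of 11, those of Acss1 and Txnip in 6, and those of Enpp1, Phyh and Cpt1b in 4. Those of Echs1, Gss, Csad and Ppt1 held in 3, those of Pex11a and Pparg in 2, and that of Pank1 in 1. Over all 23 alternatives, which include these fits, Pank1 lost its call in 19, Ppt1 and Pparg in 14, and Gss in 12. Losses numbered 11 for Pex11a, 10 for Csad, and 9 for Vnn3, Phyh, Cpt1b and Echs1. They numbered 8 for Enpp1 and Acss1, 7 for Acsl5 and Txnip, and 1 for Acaa1b, Etfa and Plin2. The difference of Ppt1 ranged from 0.03 to 0.17.

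**Figure D4:**
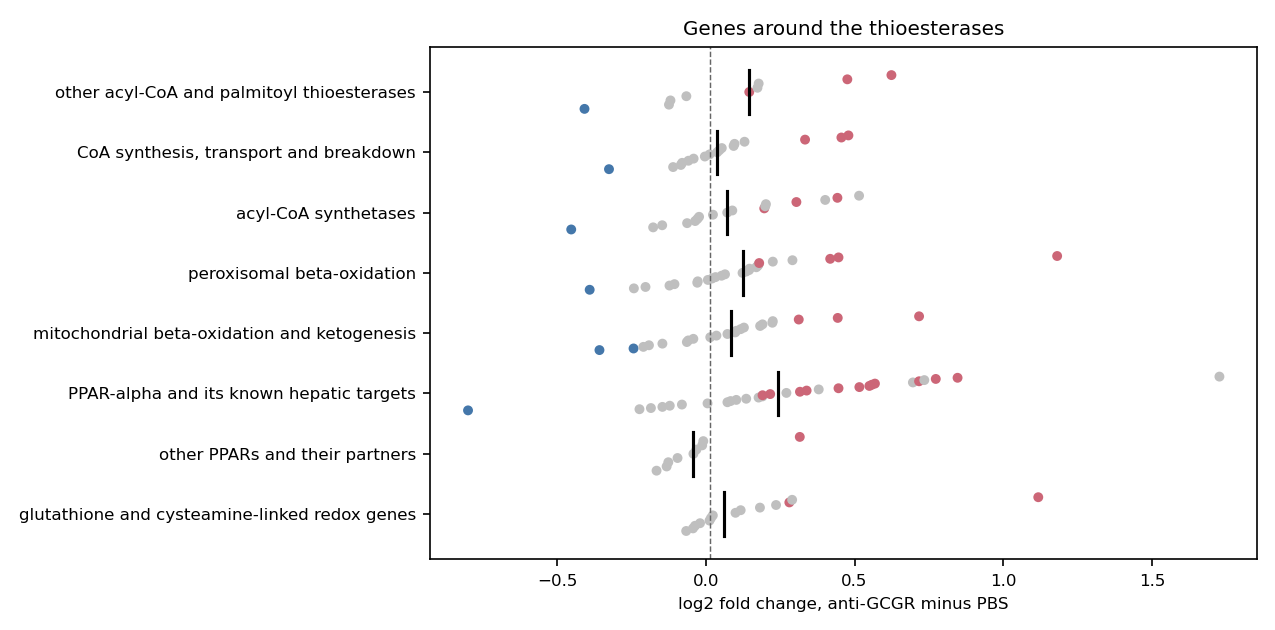
Log2 fold change, antibody minus PBS, of each measured gene (points) in the 8 lists of pathway genes (y axis), with the median of each list as a black bar and, as a dashed line, the median of all genes tested (0.013). Red points rose, blue points fell and grey points did not pass the test. The list medians lie between -0.04 and 0.24, with the list of PPAR-alpha, its targets and some partners highest. The lists were chosen with earlier results of these data known.

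Liver identity was checked with hepatocyte markers, all 7 of which were well above background on all 11 arrays. Of these, none rose and 1 (Ass1) fell. The mean of the hepatocyte list, as difference from the PBS mean, was -0.12 to 0.10 on PBS arrays. On antibody arrays it was lower than 0 throughout, at -0.33 to -0.03. The 7 markers did not move together. The mean of Ass1 went from 4.02 in PBS to 3.21 in antibody samples and that of Cps1 from 6.34 to 5.98. For 2 of the 7 the mean was higher with the antibody, Apoa1 (5.29 to 5.63) and Ttr (6.36 to 6.45). Some markers of other liver cells rose with the antibody. Of 8 stellate cell markers 4 rose (Lrat, Col1a1, Col1a2 and Pdgfrb), and the mean of the list, as difference from the PBS mean, was -0.12 to 0.12 on PBS arrays and 0.17 to 0.69 on antibody arrays. Of 7 endothelial markers 3 rose, with list means of -0.15 to 0.09 and of -0.02 to 0.47. Of 7 Kupffer cell markers 1 rose, and of 2 measured erythroid markers 1 rose. None of the cholangiocyte, lymphocyte, neutrophil, adipocyte or pancreatic acinar markers passed, and Lep and Cela2a were well above background on 0 of 11 arrays. The part of these markers in the rises of Acot11, Acot12, Acot2 and Vnn1 was not tested.

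The Cy3 channel, which holds the same reference on every array, was called as higher in 65 genes and lower in 161, together 1.42%, and in none of the 10. Across the ways of processing, Acot11 was called throughout, with values from 1.41 to 1.83 over all 23 alternatives. Its call was closest to the threshold with the replicate number as a block (limma adjusted p = 0.0497). The differences of Acot12, Acot2 and Vnn1 kept their direction in the same 23, but lost their calls in 5, 12 and 10 of them.

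**Figure D5:**
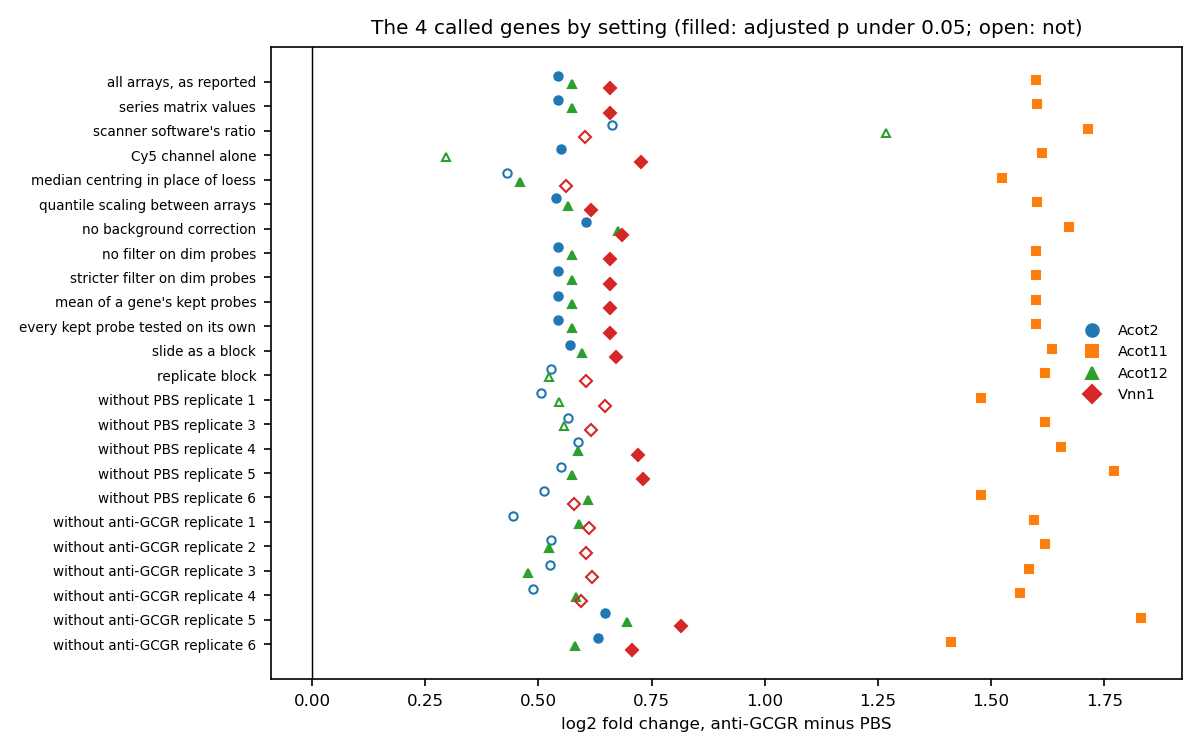
Log2 fold change, antibody minus PBS, of Acot2, Acot11, Acot12 and Vnn1 (x axis) under each alternative and each left-out array (y axis), with filled points for values past the threshold and open points for values that missed it. All values lie above 0, and Acot11 is filled in every line.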

How the data were processed

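Liver RNA of db/db mice was measured on 11 two-colour Agilent arrays (5 PBS, 6 anti-GCGR, grouped by the sample titles). Per the labels, RNA was isolated on columns with DNase digestion and labelled by linear amplification, with liver in Cy5 and the reference in Cy3. Spots were read with Feature Extraction (the submitters' processing notes name version 11, the headers 11.5.1.1). The authors' deposited scanner files hold, for every spot, unlogged median intensity in each dye and in its local background. Beside these, the deposited columns hold a log10 ratio of signals that the scanner software had already corrected, and quality flags with a score of 0 or 1. A deposited table of log2 ratios by probe has no stated method in the labels or headers. Its log2 values had column medians of -0.0028 to 0.0081, ran as Cy5 over Cy3 and were used as an alternative.

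Intensities were background-corrected with normexp (offset 50) and loess-normalized within arrays in limma 3.58.1 (R 4.3.3), with control spots at weight 0. Uneven spots were left out (5 to 49 gene spots per array) and spots of a probe were averaged. Probes were named through RefSeq accessions (GRCm38.p6 table), which matched 26581 of 39429 probes and left 12848 unnamed. Probes needed a Cy5 signal well above background on 5 or more of the 11 arrays, and the brightest kept probe stood for its gene. Groups were compared with lmFit and eBayes, adjusted over 15951 genes, and the script was tested on simulated data. Coordinates come only from the RefSeq promoter table.

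The members and gene lists were chosen with earlier results of these data known. The text names all 10 genes, the 2 largest rises and 2 largest falls past the threshold of each pathway list (or else the smallest p), and the 3 genes that correlate best with each called gene. A gene that the rule picks is not reported here. Ppt1, Pank1, Acot5, Acot6, Ado, Acsl1, Ppara, Fabp1, Cd36, Cyp4a10 and Cyp4a14, and the cell type markers singled out, were named after their values were seen. Alternatives were other values, scalings, background corrections, filters, probe rules, blocks and left-out arrays.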

Additional observations from a re-analysis of the deposited data

How the results depend on the processing

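Of the 10 members, Acot1, Acot8, Acot11 and Acot13 kept their direction and their side of the threshold under all 23 alternatives, and the scanner software's ratio turned Acot3 (-0.026) and Acot4 (-0.077), neither called. That ratio gave Acot2 0.66 (limma adjusted p = 0.0658), Acot12 1.27 (0.129) and Vnn1 0.60 (0.0641), which left 1 member called as higher, and 13 pathway genes higher against 29. Median centring in place of loess gave Acot2 0.43 (limma adjusted p = 0.0545), Vnn1 0.56 (0.0674) and Acot7 -0.24 (0.0325). It left 2 members higher and 1 lower, 13 pathway genes higher and 16 lower (7 lower otherwise), and 582 genes higher and 2146 lower (1432 and 904 otherwise). The Cy5 channel alone gave Acot12 0.30 (limma adjusted p = 0.115). With the replicate number as a block, 715 genes were higher and 336 lower, 9 pathway genes were higher and 4 lower, and 1 member was higher. The block gave Acot2 0.53 (limma adjusted p = 0.0718), Acot12 0.52 (0.0628) and Vnn1 0.60 (0.0925). Acot11, the member still called, was 1.62 with an adjusted p just under the threshold (limma adjusted p = 0.0497). Samples of the same number did not deviate together (correlations from -0.13 to 0.14, and 0 of 5 PBS arrays correlated best with their own number). The numbers were therefore not taken as pairs. Samples of the same number also shared a slide, and the correlations are few, so this check cannot exclude a pairing. Leaving out 1 array at a time gave 782 to 2294 genes higher and 458 to 1574 lower, 1 to 4 members higher, 14 to 40 pathway genes higher and 4 to 10 lower. The members then ranged from 0.44 to 0.65 (Acot2), from 1.41 to 1.83 (Acot11), from 0.48 to 0.70 (Acot12) and from 0.58 to 0.81 (Vnn1). Without anti-GCGR replicate 5, the counts were the highest of these. The cause was not tested for any of these changes. The reference signal was well above background on 0 of 11 arrays for Acot4 and on 2 of 11 for Acot12, which bounds how far their ratios can be read.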
